A study of Mus musculus with 3 samples.

Results

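Sox9, Lhx2, Nfatc1, Tcf7l1, Tcf7l2, Tbx1, Foxc1, Runx1 and Hopx encode transcription factors or transcriptional cofactors that are known from the bulge, the stem cell compartment of the mouse hair follicle. These 9 genes were taken as a named list, and all 9 were among the 32285 genes counted. Transcripts were counted in single cells of back skin at P38 (postnatal day 38), 6 months and 12 months, with 1 library per age. The question addressed was where along the follicle, from hair germ to upper follicle, each of the 9 genes was higher than in the epidermis, and how many of them single cells held at once.

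All 3 libraries were labelled with genotype Wildtype, treatment No and tissue Skin. Per the methods the mice carried the Krt14-H2B-GFP transgene, in which the Krt14 promoter marks basal epithelial cells with a nuclear fluorescent protein. P38 was a male in synchronized catagen, 6 months a female with mostly anagen follicles and 12 months a male with mixed telogen and anagen follicles. The labels describe dissociated total back skin, while the methods describe a sort of epithelial and follicle cells before loading. Per the paper, P38 held few dermal cells because Krt14-H2B-GFP positive epithelial cells were sorted. Dermal and immune cells were captured at 6 months and 12 months, so that counts of such cells cannot be compared with P38. Age, sex, hair cycle stage, sorting and sequencing depth therefore cannot be told apart. Levels at the 3 ages are given side by side with counting error only.

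The bulge keeps hair follicle stem cells quiescent between hair cycles, and the hair germ beneath it is the first part to divide when a new hair starts. SOX9 and LHX2 specify and maintain bulge stem cells, TCF7L1 and TCF7L2 are DNA-binding partners of beta-catenin that repress or activate Wnt targets, and NFATC1 and FOXC1 hold stem cells in quiescence. TBX1 supports stem cell self-renewal, RUNX1 promotes entry into the growth phase, and HOPX, a homeodomain protein that binds no DNA itself, marks bulge stem cells and their progeny.

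Cells were kept above 200 and below 5000 detected genes if less than 15% of their UMIs (unique molecular identifiers, 1 per captured transcript) were mitochondrial. This left 2109, 3502 and 3240 cells of P38, 6 months and 12 months, with a median of 16170, 1019 and 11438 UMIs per cell. Each cell was gated from fixed marker genes, none of which is among the 9, and a class is called X-like. Among the 10 genes that stood out most in a class by fold were 3 gate markers of the outer bulge (Krt24, Ccn2 and Postn), 2 of the hair germ (Lgr5 and Shisa2, after Scrg1 and Nppc) and 3 of the upper follicle (Defb6, Cst6 and Krt79). The hair germ-like class held 231, 136 and 44 cells at P38, 6 months and 12 months, the outer bulge-like class 238, 73 and 104, the inner bulge niche-like class 130, 28 and 36, and the upper follicle-like class 176, 235 and 195. The upper bulge-like class held 41 cells at P38 and 95 at 12 months, and its 10 cells at 6 months were too few for a value. The basal class of the interfollicular epidermis (IFE basal-like) held 319, 125 and 737 cells. Between 6 months and 12 months, 81 kept barcodes were shared, against 3 between P38 and 6 months and 1 between P38 and 12 months. Of the outer bulge-like cells 0, 2 and 1 carried such a barcode, and of the IFE basal-like cells 0, 0 and 3.

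The classes did not all match their names equally well. The summed hair germ markers were no higher in hair germ-like cells (5539, 4089 and 1618 CPM, UMIs of a gene scaled to a fixed total of UMIs per class and library) than in outer bulge-like cells (5792, 6600 and 3304 CPM). When cells were clustered and the clusters named by the same markers, 75.6%, 71.2% and 81.7% of outer bulge-like and 77.1%, 87.2% and 78.3% of IFE basal-like cells lay in clusters of their own name. The share was 59.3%, 58.1% and 31.8% for hair germ-like, 58.5%, 42.9% and 30.6% for inner bulge niche-like and 44.9%, 34.9% and 35.4% for upper follicle-like cells, and no cluster took the name of the upper bulge. In the upper bulge-like class at 12 months 28 of 95 cells held UMIs of 2 or more of 5 fibroblast markers (Dcn, Col1a1, Col3a1, Lum, Pdgfra), against 0 of 41 at P38. Those 5 markers summed to 1249 CPM at 12 months and to 3.83 CPM at P38, and a dermal papilla list summed to 44.0 CPM with 2 of 4 markers detected, against 0 at P38. The 28 cells held 1328 CPM of Krt5 and Krt14, against 9243 CPM in the other 67. In the other follicle classes the 5 fibroblast markers summed to at most 86.3 CPM. Upper bulge levels at 12 months are therefore given with and without these 28 cells.

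In the GRCm38 annotation Sox9 lies at chr11:112782224-112787760 (plus strand), Lhx2 at chr2:38339281-38369733 (plus), Tcf7l1 at chr6:72626378-72789254 (minus), Tcf7l2 at chr19:55741820-55933654 (plus), Tbx1 at chr16:18580979-18590671 (minus), Foxc1 at chr13:31806633-31812476 (plus), Runx1 at chr16:92601466-92826149 (minus), and Hopx at chr5:77086988-77115121 (minus). RefSeq promoters (GRCm38.p6, 300 bases each, most of them upstream of the start) were matched for 7 of the 9 genes, 12 promoters in all. They were searched on both strands for short motifs of the families to which the 9 genes or their partners belong, to show whether the letters that these proteins read stand in the promoters of the genes themselves. The motifs were ATCAAAG (TCF/LEF), AACAATG (SOX), AACCACA (RUNX), TGTTTAC (FOX), CTAATTA (LIM homeodomain) and TGGAAAA (NFAT), which stood in 3.73%, 3.78%, 5.27%, 3.65%, 2% and 6.73% of all 32851 promoters. Of the 12 promoters 2 held a match. A Runx1 promoter at chr16:92826025-92826324 (minus strand) held the RUNX letters at 2 places that begin 27 and 35 bases after the start, and a Tcf7l2 promoter at chr19:55741560-55741859 (plus strand) held CATTGTT, the reverse complement of the SOX letters, beginning 103 bases before the start. Both are printed 5′ to 3′ with the matches in capitals.
Runx1: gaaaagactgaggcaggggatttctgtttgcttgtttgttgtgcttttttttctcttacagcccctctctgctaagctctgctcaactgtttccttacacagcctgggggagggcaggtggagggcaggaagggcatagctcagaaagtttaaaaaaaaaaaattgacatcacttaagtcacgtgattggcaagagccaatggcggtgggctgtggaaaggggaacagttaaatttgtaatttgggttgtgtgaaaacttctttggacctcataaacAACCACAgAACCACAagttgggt
Tcf7l2: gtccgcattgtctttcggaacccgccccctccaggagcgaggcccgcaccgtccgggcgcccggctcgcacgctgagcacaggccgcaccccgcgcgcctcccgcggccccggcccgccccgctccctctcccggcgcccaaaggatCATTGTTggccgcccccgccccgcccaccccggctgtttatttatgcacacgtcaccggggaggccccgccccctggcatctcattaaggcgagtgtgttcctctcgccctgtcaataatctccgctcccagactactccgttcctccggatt
A match is a description of the letters and not of a bound site.

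Over the IFE basal-like class, all 9 genes were higher in outer bulge-like cells, where 21.7% of the 11599 genes tested were called, 10.8% higher and 10.9% lower (edgeR quasi-likelihood test, Benjamini-Hochberg adjusted p under 0.05, library as a block). In hair germ-like cells 7 of 9 were higher (of all genes 23.7% were called, 12.5% higher and 11.3% lower). In inner bulge niche-like cells 8 of 9 were higher (15.9%, 8.27% and 7.62%), in upper bulge-like cells 8 of 9 (9.6%, 6.09% and 3.52%) and in upper follicle-like cells 8 of 9 (24.6%, 13.1% and 11.6%). None of the 9 was called lower in any of these 5 comparisons. The median log2 fold change of the 9 genes over IFE basal-like cells was 3.04 in hair germ-like, 3.27 in outer bulge-like, 3.03 in inner bulge niche-like, 2.45 in upper bulge-like and 1.90 in upper follicle-like cells, while the median over all genes lay between -0.06 and -0.01. Without the 28 cells with fibroblast markers, and the few such cells of other classes, 8 of 9 genes were again called in upper bulge-like cells. Their median was 2.69, and of all 11527 genes tested 442 were called higher and 240 lower. In that class Nfatc1 (adjusted p = 0.186) and Foxc1 (adjusted p = 0.114) lost their calls without 12 months, and Sox9 (adjusted p = 0.0512) and Nfatc1 (adjusted p = 0.0901) without library as a block. Of the 126 levels of the 9 genes in a follicle class and library, 121 lay above the level in IFE basal-like cells of that library. These levels are CPM, and the same share was not counted over all genes. On that scale the median of all genes also lay above IFE basal-like cells, except in upper follicle-like cells (-0.06 on the log2 scale). The 126 comparisons are not independent, since all classes of a library share the same IFE basal-like level of a gene. The fit scaled the libraries by TMM, and on the CPM scale the median of all genes was 0.20 to 0.25 on the log2 scale in hair germ-, outer bulge-, niche- and upper bulge-like over IFE basal-like cells and -0.26 in upper follicle-like over outer bulge-like cells, so that fitted values differ from ratios of the CPM by about these shifts.

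**Figure D1:**
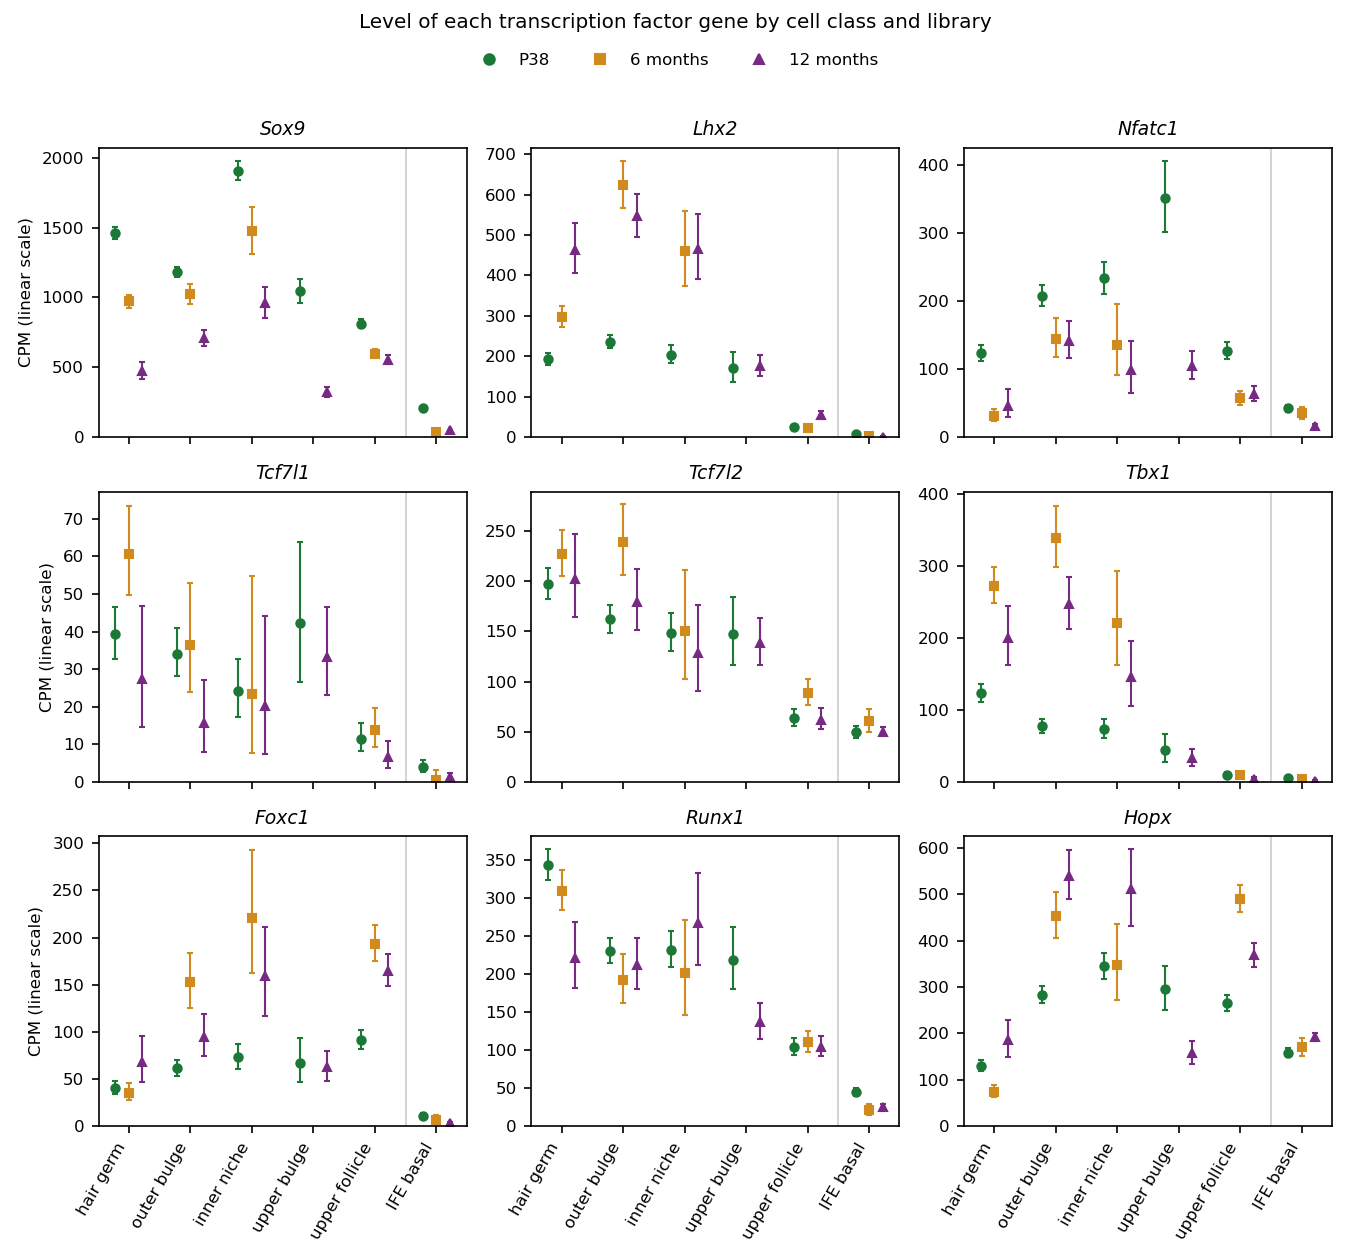
Level of each of the 9 genes (CPM, linear axis) by class and library, 1 panel per gene, with points for P38, 6 months and 12 months and bars for exact Poisson 95% intervals, which cover counting error only. Lhx2 and Tbx1 stand near 0 in IFE basal-like cells (at most 7.73 and 4.51 CPM), and Hopx stands there at 158 to 191 CPM.

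**Figure D2:**
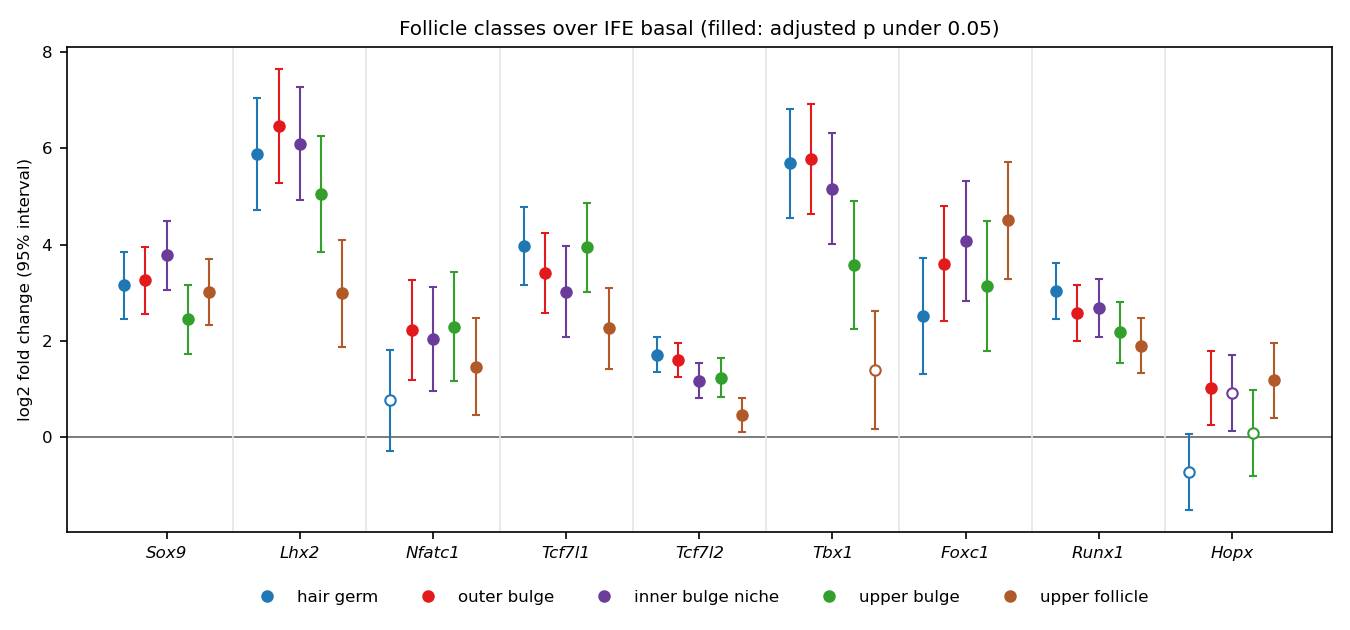
Log2 fold change of each gene in 5 follicle classes over IFE basal-like cells with 95% intervals from the edgeR fit over 22 sums, filled where the adjusted p was under 0.05. The points of all 9 genes are filled for the outer bulge-like class, and Hopx is filled for the outer bulge- and upper follicle-like classes only.

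Sox9 was high along the whole follicle. Outer bulge-like cells held 1182, 1022 and 708 CPM at P38, 6 months and 12 months, against 210, 39.7 and 50.9 CPM in IFE basal-like cells, and the ranges did not overlap. Its log2 fold change was 3.27 (SE 0.32, adjusted p = 1.69e-06). The highest Sox9 level of these follicle classes was in inner bulge niche-like cells in every library (1907, 1473 and 960 CPM), and upper follicle-like cells still held 813, 598 and 554 CPM. Neither class was called different from the outer bulge-like class (0.51, SE 0.29, adjusted p = 0.802, and -0.25, SE 0.29, adjusted p = 0.571), although the niche was called with both classes fitted alone (0.54, adjusted p = 0.0175). In migNiche-like cells, the class named after migratory niche cells, Sox9 stood at 1812 and 1094 CPM or 1453 ± 508 (SD, n = 2), in the range of the niche. In hair germ-like cells the 3 libraries spread widely, with 1459, 972 and 475 CPM. Sox9 in IFE basal-like cells at P38 depended on how cells were assigned: cells of clusters named IFE basal by the same markers held 50.6, 24.4 and 7.81 CPM, and with those classes the fold change over them was 5.14.

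Lhx2, a LIM homeodomain factor, had the largest fold change of the 9 genes in the outer bulge-like class. It stood at 236, 623 and 547 CPM there, against 7.73, 2.14 and 1.69 CPM in IFE basal-like cells, a log2 fold change of 6.47 (SE 0.54, adjusted p = 4.16e-07). The IFE basal-like level rested on 48, 4 and 17 UMIs. T cell-like cells, which should lack Lhx2, held 11.3 CPM at 6 months and 73.2 CPM at 12 months, above the IFE basal-like level at those ages. No T cell-like cells were found at P38. The 12 months value was 5.59 CPM once the cells with the highest doublet scores were removed. Only 2 T cell-like cells were among those removed, and the doublet caller had not worked on these data. Hair germ-like cells held 193, 297 and 464 CPM and inner bulge niche-like cells 204, 460 and 467 CPM, and both ranges overlapped that of the outer bulge-like class. Upper follicle-like cells held 24.7, 24.0 and 54.5 CPM, below every bulge value. The difference from the outer bulge-like class was -3.48 (SE 0.46, adjusted p = 2.43e-05).

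Tbx1, a T-box factor, followed Lhx2 across classes. Its level in outer bulge-like cells was 76.9 CPM at P38 (exact Poisson 95% interval 67.9 to 86.9), 340 CPM at 6 months (299 to 384) and 247 CPM at 12 months (213 to 285), against 4.51, 3.22 and 1.20 CPM in IFE basal-like cells. The log2 fold change was 5.78 (SE 0.52, adjusted p = 7.43e-07). Upper follicle-like cells held 9.86, 8.95 and 3.52 CPM of Tbx1 and differed from outer bulge-like cells by -4.38 (SE 0.49, adjusted p = 5.13e-06). Over IFE basal-like cells Tbx1 was not called in the upper follicle (1.40, SE 0.56, adjusted p = 0.0782), but it was with cells assigned by clusters (2.63, adjusted p = 0.00208). T cell-like cells held 11.3 and 14.6 CPM of Tbx1, from 3 UMIs each, and 0 UMIs at 12 months once the highest doublet scores were removed, so that no firm background level was had. The P38 level in the outer bulge- and niche-like classes lay below both later levels, a difference larger than counting error, and with 1 library per age it has no test.

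Tcf7l1 and Tcf7l2 were both higher in the bulge and hair germ than in the upper follicle. Tcf7l1 is a repressor of Wnt targets in bulge cells. It was sparse, at 34.0, 36.4 and 15.5 CPM in outer bulge-like cells, against 3.86, 0.536 and 1.30 CPM in IFE basal-like cells, where the 6 months value was 1 UMI. T cell-like cells held 15.1 CPM at 6 months and 0 of 205050 UMIs at 12 months, which allows up to 14.6 CPM, so that the IFE basal-like level cannot be told from background. Its log2 fold change was 3.42 (SE 0.38, adjusted p = 5.13e-06). Hair germ-like cells held 39.2, 60.8 and 27.4 CPM, not called against the outer bulge (0.56, SE 0.33, adjusted p = 0.575). Tcf7l1 fell in upper follicle-like cells to 11.4, 13.7 and 6.59 CPM, and the difference from outer bulge-like cells was -1.15 (SE 0.34, adjusted p = 0.0171). That call was lost without P38 (-0.99, adjusted p = 0.156), without 12 months (-1.21, adjusted p = 0.0834), without library as a block (-1.18, adjusted p = 0.101) and with cells assigned by clusters (-0.80, adjusted p = 0.124).

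Tcf7l2, the close paralog, was present in all epithelial classes and higher in the bulge and hair germ. Outer bulge-like cells held 162, 240 and 180 CPM and hair germ-like cells 198, 227 and 203 CPM, against 49.3, 60.6 and 49.99 CPM in IFE basal-like cells. The T cell-like level was lower still, at 18.9 and 34.1 CPM. The fold change over IFE basal-like cells was 1.61 in the outer bulge (SE 0.16, adjusted p = 2.45e-06) and 1.72 in the hair germ (SE 0.16, adjusted p = 1.26e-06). In upper follicle-like cells Tcf7l2 was at 63.5, 88.5 and 62.0 CPM, -1.14 from the outer bulge (SE 0.16, adjusted p = 5.37e-05). Over IFE basal-like cells the upper follicle difference was 0.47 (SE 0.16, adjusted p = 0.04), and that call was lost without any 1 of the 3 libraries (adjusted p = 0.173 without P38, 0.392 without 6 months and 0.0906 without 12 months). It was also lost with no filter on low counts (adjusted p = 0.225), without the block (adjusted p = 0.114), with both classes fitted alone (adjusted p = 0.0766) and with scaling to the total count (adjusted p = 0.0739).

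Nfatc1, the calcineurin-dependent factor of stem cell quiescence, lies on chromosome 18. It stood at 207, 144 and 141 CPM in outer bulge-like cells and 233, 136 and 98.0 CPM in niche-like cells, against 42.3, 35.4 and 16.3 CPM in IFE basal-like cells. The outer bulge fold change was 2.24 (SE 0.47, adjusted p = 0.00222). It was lost without 12 months (2.01, adjusted p = 0.0863) and without the block (2.20, adjusted p = 0.0728), as were the calls of Nfatc1 in the niche and upper follicle. T cells use NFAT factors themselves, and T cell-like cells held 86.7 CPM of Nfatc1 at 6 months and 19.5 CPM at 12 months. Hair germ-like cells held 124, 31.8 and 46.4 CPM and were not called over IFE basal-like cells (0.77, SE 0.48, adjusted p = 0.279). The difference between hair germ- and outer bulge-like cells was -1.47 (SE 0.48, adjusted p = 0.184), with the hair germ lower in 3 of 3 libraries, and was called with no filter (adjusted p = 0.0301), with both classes alone (adjusted p = 0.0231) and without P38 (adjusted p = 0.0398). In migNiche-like cells Nfatc1 was at 39.7 CPM at P38 and 2.64 CPM at 6 months.

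Foxc1, a forkhead factor, had its highest mean levels in the inner bulge niche and the upper follicle. Upper follicle-like cells held 91.2, 194 and 165 CPM, outer bulge-like cells 61.0, 152 and 94.4 CPM and hair germ-like cells 40.1, 35.3 and 67.5 CPM, against 10.5, 6.43 and 2.79 CPM in IFE basal-like cells. The upper follicle level was above the outer bulge level in 3 of 3 libraries. The fitted difference was 0.90 (SE 0.47, adjusted p = 0.167) and was not called, though it was with both classes fitted alone (0.82, adjusted p = 0.00978) and with cells assigned by clusters (1.07, adjusted p = 0.0452). Over IFE basal-like cells the fold change was 4.51 in the upper follicle (SE 0.55, adjusted p = 1.09e-05), 4.08 in the niche (SE 0.57, adjusted p = 8.42e-05) and 3.61 in the outer bulge (SE 0.55, adjusted p = 0.000125). With clusters these were 7.20, 6.56 and 6.13, and Foxc1 in IFE basal-like cells at P38 was 1.60 CPM. In hair germ-like cells it was 2.52 (SE 0.55, adjusted p = 0.00261), lost without 12 months (1.86, adjusted p = 0.0712). T cell-like cells held 7.54 and 9.75 CPM of Foxc1, from 2 UMIs each.

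Runx1 had its highest mean level in the hair germ, but it was not called there over the outer bulge (0.46, SE 0.25, adjusted p = 0.54). Inner bulge niche-like cells held 232, 202 and 267 CPM, above the hair germ-like level at 12 months. Hair germ-like cells held 344, 310 and 222 CPM, outer bulge-like cells 231, 193 and 212 CPM and upper follicle-like cells 105, 111 and 105 CPM, against 44.9, 20.9 and 25.1 CPM in IFE basal-like cells. The 3 upper follicle values lay below every hair germ and bulge value. Over IFE basal-like cells the fold change was 3.04 in the hair germ (SE 0.27, adjusted p = 8.02e-07), 2.58 in the outer bulge (SE 0.27, adjusted p = 2.8e-06) and 1.90 in the upper follicle (SE 0.26, adjusted p = 3.51e-05). With clusters these were 4.45, 3.82 and 2.98, and Runx1 in IFE basal-like cells was 16.5 CPM at P38 and 7.52 CPM at 12 months. The upper follicle difference from the outer bulge missed the threshold at -0.68 (SE 0.25, adjusted p = 0.0515). On the CPM scale it was -0.98 (adjusted p = 0.00393), and 10 alternatives called it, this scaling among them. It was not called without any 1 of the libraries, without the block or with clusters. Runx1 was also carried by other cells of the skin, at 163 and 233 CPM in Langerhans and macrophage-like cells at 6 and 12 months and 196 CPM in dermal papilla-like cells at 12 months.

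Hopx was lower in the hair germ than in the outer bulge, and its difference between outer bulge and epidermis was the smallest of the 9 genes. Outer bulge-like cells held 283, 453 and 540 CPM, niche-like cells 345, 347 and 510 CPM and upper follicle-like cells 264, 490 and 368 CPM, against 158, 169 and 191 CPM in IFE basal-like cells. Hair germ-like cells held only 130, 74.1 and 186 CPM. The outer bulge fold change over IFE basal-like cells was 1.03 (SE 0.36, adjusted p = 0.0465), and it lost its call without P38 (1.20, adjusted p = 0.0585), without 6 months (0.93, adjusted p = 0.0659), without 12 months (adjusted p = 0.186), without the block (adjusted p = 0.0928) and with cells assigned by clusters (0.90, adjusted p = 0.196). In the upper follicle it was 1.19 (SE 0.36, adjusted p = 0.0201), lost without 6 months (adjusted p = 0.102) and without 12 months (adjusted p = 0.0654). In T cell-like cells Hopx stood at 347 and 390 CPM, above its level in IFE basal-like cells, and cells gated as inner root sheath and shaft at 6 months held 550 CPM.

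The classes of the follicle were then compared with the outer bulge-like class. In upper follicle-like cells 4 of 9 genes were lower, where 29.7% of all genes tested were called, 15.5% higher and 14.2% lower. These were Lhx2, Tbx1, Tcf7l1 and Tcf7l2, and none of the 9 was called higher. The median of the 9 genes was -0.77 and that of all genes 0.02. The upper follicle- and IFE basal-like comparisons share the outer bulge-like sums, so that values of both were set side by side and not correlated.

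In hair germ-like cells 1 of 9 genes was called against the outer bulge (0.983% of all genes were called, 0.535% higher and 0.448% lower). Hopx was lower, by -1.74 on the log2 scale (SE 0.37, adjusted p = 0.0317), in 3 of 3 libraries. That call was lost without P38 (-2.02, adjusted p = 0.0527), without 6 months (-1.39, adjusted p = 0.159), without 12 months (-1.83, adjusted p = 0.156) and without the block (-1.71, adjusted p = 0.161). Lhx2, Tbx1, Sox9 and both Tcf genes had adjusted p between 0.575 and 1 in this comparison, and their intervals ran from -1.48 for Lhx2 to 1.27 for Tcf7l1.

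In inner bulge niche-like cells none of the 9 genes was called against the outer bulge, where 0.112% of all genes were called, 0.103% higher and 0.00862% lower. By edgeR 1 of the 9, Tcf7l2, had an unadjusted p under 0.05 (-0.43, adjusted p = 0.584), a share that was not counted over all genes. DESeq2 called 0 of the 9, and 39 of all 11599 genes. The widest interval was that of Foxc1, from -0.63 to 1.57, followed by that of Nfatc1, from -1.23 to 0.86, so that these data leave room for sizeable differences in either direction.

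In upper bulge-like cells none of the 9 genes was called against the outer bulge, where 0.948% of all genes were called, 0.595% higher and 0.353% lower. By edgeR 4 of the 9 had an unadjusted p under 0.05, a share that was not counted over all genes. DESeq2 called 1 of the 9, and 173 of all 11599 genes. Tbx1 came closest, at 44.1 CPM at P38 and 32.3 CPM at 12 months (45.5 CPM without the 28 cells), against 76.9 and 247 CPM in the outer bulge. The fitted difference was -2.20 (SE 0.55, adjusted p = 0.0665), and -1.90 (adjusted p = 0.13) without the 28 cells. Lhx2 stood at 171 and 177 CPM in the upper bulge (245.5 CPM at 12 months without the 28 cells), a difference of -1.41 (SE 0.50, adjusted p = 0.235), and -1.14 (adjusted p = 0.408) without the 28 cells. Nfatc1 reached 351 CPM at P38 and 105 CPM at 12 months (121 CPM without the 28 cells). Sox9 stood at 1043 and 323 CPM (444 CPM without them), Foxc1 at 67.1 and 62.6 CPM (81.4 CPM without them), Runx1 at 219 and 137 CPM (144 CPM without them), Tcf7l2 at 148 and 139 CPM (110 CPM without them) and Hopx at 295 and 157 CPM (212 CPM without them). Tcf7l1 moved most, with 42.2 CPM at P38 and 33.2 CPM at 12 months but 13.8 CPM without the 28 cells, and fibroblast-like cells held 58.9 and 35.5 CPM of Tcf7l1 at 6 and 12 months.

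**Figure D3:**
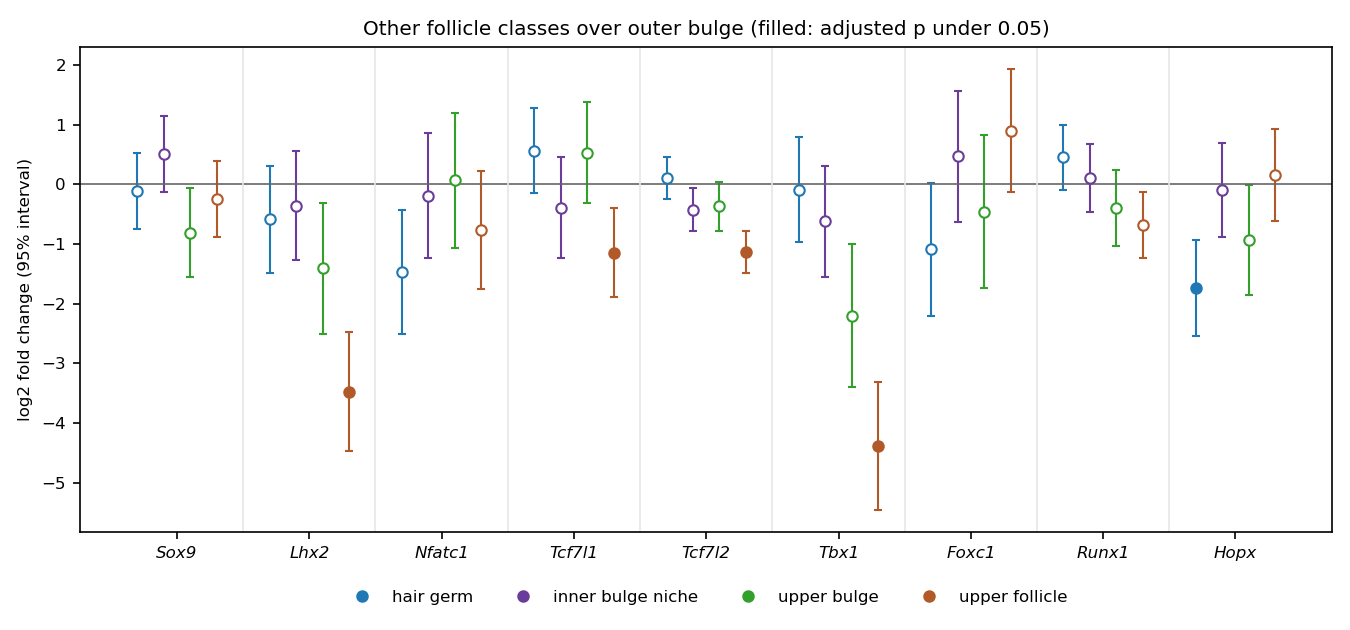
Log2 fold change of each gene in 4 follicle classes over outer bulge-like cells with 95% intervals from the same fit, filled where the adjusted p was under 0.05. Filled points are Lhx2, Tbx1, Tcf7l1 and Tcf7l2 in the upper follicle and Hopx in the hair germ, all below 0.

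Single cells were then asked how many of the 9 genes they held at once. Each cell was thinned to 2000 UMIs, since a deeper cell shows more genes, and cells below that were left out. Of the outer bulge-like cells 59.5% (exact binomial 95% interval 52.9 to 65.9, 232 cells) held 3 or more of the 9 genes at P38, 78.5% (66.5 to 87.7, 65 cells) at 6 months and 73.8% (64.2 to 82, 103 cells) at 12 months. In IFE basal-like cells the share was 5.36% (3.15 to 8.45), 2.44% (0.506 to 6.96) and 1.09% (0.471 to 2.13). T cell-like cells, a class that should lack most of these factors but held Hopx and Nfatc1, gave 1.92% at 6 months (0.0487 to 10.3). At 12 months they gave 2.5% (0.0633 to 13.2), from 1 of 40 cells against 1 of 52 at 6 months. The intervals of outer bulge- and IFE basal-like cells did not overlap in any library. Those of IFE basal- and T cell-like cells overlapped at both ages, but the T cell-like intervals are too wide to set a background level. Unthinned shares were 95%, 89% and 96.2% in outer bulge-like cells (median 14006, 9599 and 6765.5 UMIs), 48.9%, 29.6% and 24.3% in IFE basal-like cells (19028, 14782 and 13204 UMIs) and 5.36% and 5% in T cell-like cells (4322.5 and 4441 UMIs).

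Hair germ-like cells gave 51.3%, 53.8% and 51.2% and inner bulge niche-like cells 52.3%, 71.4% and 66.7%. Upper follicle-like cells gave 24%, 22.7% and 26.8%, with 116 of 235 cells at 6 months left out as too shallow. Their intervals lay below those of the outer bulge in every library. In upper bulge-like cells the share was 53.7% at P38 (37.4 to 69.3) and 28.4% at 12 months (19.6 to 38.6), and 40.3% at 12 months without the 28 cells (28.5 to 53). At 12 months 31.6% of upper bulge-like cells held none of the 9 genes, and 26.9% without the 28 cells, against 7.32% at P38.

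**Figure D4:**
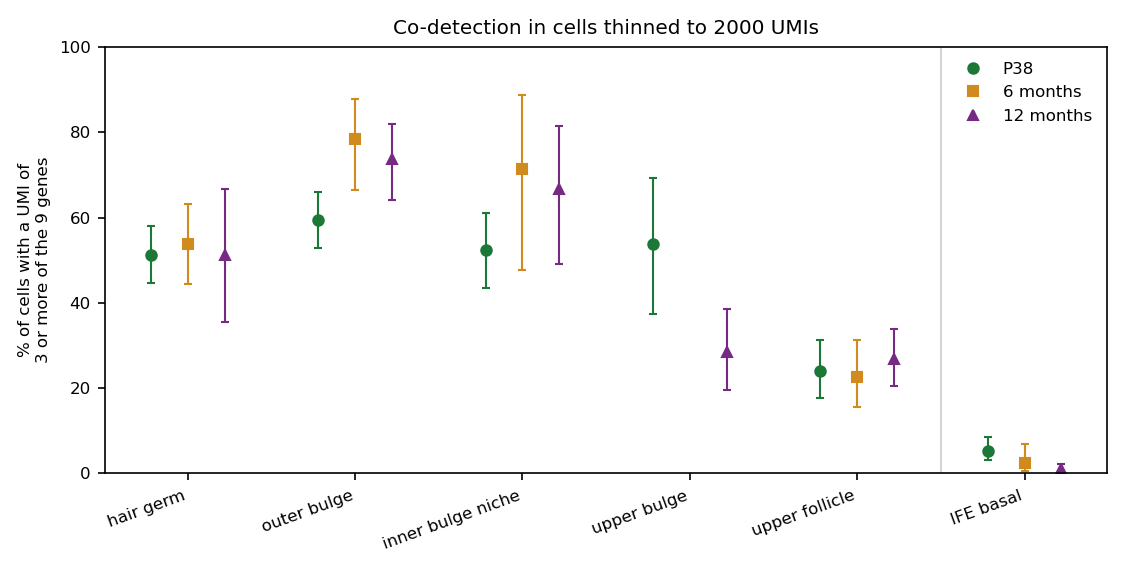
Share of cells (%) with 3 or more of the 9 genes among cells thinned to 2000 UMIs, by class and library, with exact binomial 95% intervals. The outer bulge-like class runs from 59.5% to 78.5% and the IFE basal-like class from 1.09% to 5.36%.

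Pairs of genes were examined next in the thinned cells. Sox9 and Lhx2 were found together in 29.7% (23.9 to 36.1), 35.4% (23.9 to 48.2) and 48.5% (38.6 to 58.6) of outer bulge-like cells, against 1.58%, 0% and 0.136% of IFE basal-like cells. Lhx2 and Tbx1 were found together in 8.62%, 30.8% and 36.9% of outer bulge-like cells and in 0% of upper follicle-like cells of every library, with upper limits of 2.18%, 3.05% and 2.04%. Sox9 and Foxc1 were found together in 13.2%, 21% and 20.7% of upper follicle-like cells, where no pair had intervals apart between cells with and without the first gene. Within the outer bulge-like class, the second gene of a pair was more frequent in cells with the first than in cells without it for 20, 18 and 21 of 36 pairs, and the intervals of the 2 shares were apart for none. In upper bulge-like cells at 12 months it was more frequent for 33 of 36 pairs and apart for 7, such as Lhx2 in 59.4% of cells with Sox9 and 14.3% of cells without it. Without the 28 cells with fibroblast markers 4 pairs were apart. At P38, where none of these cells was found, 0 pairs of the upper bulge were apart. IFE basal-like cells at P38 had 6 pairs apart, for example Runx1 in 22.8% of cells with Sox9 and 5.77% of cells without it, while 6 months had 0 and 12 months 1. Whether the P38 cells that clustered elsewhere bear on these pairs was not tested.

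Across the 22 sums of 8 epithelial classes in 3 libraries, the levels of Sox9, Lhx2, Tcf7l1, Tcf7l2, Tbx1 and Runx1 ran together, with Pearson's r of log2(CPM + 5) from 0.78 to 0.95 among them. It is a description here, since the sums share libraries and depth, and r was not counted over all pairs of genes. It was 0.95 between Lhx2 and Tbx1 and between Tcf7l2 and Tbx1, 0.94 between Lhx2 and Runx1 and 0.93 between Sox9 and Runx1. For Foxc1 it ran from 0.59 with Tbx1 to 0.77 with Sox9, so that the bound of 0.78 does not set Foxc1 clearly apart. For Nfatc1 it ran from 0.40 with Tbx1 to 0.66 with Foxc1. For Hopx it ran from -0.04 with Tcf7l1 to 0.64 with Foxc1. Among 5404 genes with a mean of at least 20 CPM, the 3 genes most like Sox9 were Filip1l (0.95), Runx1 and Capn2 (0.93 each), and those most like Lhx2 were Dmd and Setbp1 (0.96 each) and Tbx1. The pattern of Tbx1 was nearest to Shisa2 (0.98), itself a marker used for the hair germ gate, Rhoc (0.97) and Cers4 (0.96). For Tcf7l1 the nearest were Lgr4 (0.94), which encodes an R-spondin receptor, Tcf7l2 and Runx1 (0.93 each), and for Tcf7l2 they were Maged1 and Ltbp3 (0.96 each) and Shisa2 (0.95). Nfatc1 was nearest to Fst (0.92), which encodes the activin inhibitor follistatin, Aqp3 (0.90) and Lrrfip1 (0.87), and Foxc1 to Efnb2 (0.91), Ptprk and Dapk2 (0.88 each). Runx1 was nearest to Filip1l (0.95), Alcam and Lhx2 (0.94 each). Hopx had no gene above 0.79, its nearest being Pir (0.79), Rnf208 and Ablim1 (0.77 each).

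Relatives and partners of the 9 genes were then counted. Of 14 family members listed (other SOX, LIM homeodomain, NFAT, TCF/LEF, RUNX, FOXC and TBX genes) 7 were abundant enough to be tested in outer bulge-like over IFE basal-like cells. Tcf7 was higher by 1.11 (SE 0.39, adjusted p = 0.0493) and Nfatc3 lower by -0.93 (SE 0.23, adjusted p = 0.00713), and the median of the 7 was 0.13. In upper bulge-like over IFE basal-like cells 3 of the 7 were higher and 0 lower with a median of 2.41, and without the 28 cells 2 were higher and 0 lower with a median of -0.07. Of 12 partners and regulators 11 were tested, with a median of 0.16 against -0.03 for all genes. Where 10.8% of all genes were higher and 10.9% lower, 0 of the 11 were lower and 4 were higher. These were the Groucho corepressors Tle1 (1.74, SE 0.38) and Tle2 (1.85, SE 0.43), which bind TCF proteins, beta-catenin itself (Ctnnb1, 0.72, SE 0.18) and the RUNX partner Cbfb (0.65, SE 0.21). The calcineurin subunits Ppp3ca, Ppp3cb and Ppp3r1, which activate NFAT, had values of 0.10, 0.07 and 0.16 and adjusted p of 0.834, 0.896 and 0.728.

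Of 17 other transcription factors known from the follicle 16 were tested, 9 were higher in the outer bulge and 1 lower, with a median of 1.80 against -0.03 for all genes. By smallest adjusted p these were Nfib (1.81), Hoxc13 (4.30), Gli2 (3.16) and Gli3 (1.57), and Sox4 was lower (-1.19, SE 0.39, adjusted p = 0.034). Of 14 transcription factors of epidermal differentiation 0 were higher and 8 lower, with a median of -0.91. They were led by Gata3 (-1.81), Klf5 (-2.57), Tfap2c (-2.34) and Zfp750 (-1.85). In upper follicle-like over outer bulge-like cells the follicle list had 1 higher and 7 lower and the epidermal list 8 higher and 1 lower, beside 0 higher and 4 lower of the 9 genes. The lists were chosen with earlier results of these data known and are given as counts.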

How the data were processed

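Single cells of mouse back skin were captured on the 10x Genomics platform in 3 libraries, 1 per age. The deposited counts are raw UMI counts per gene and barcode, which the authors made with Cell Ranger on mm10. The labels name version 6.1.2, as does the P38 file header, while the headers of 6 months and 12 months name 6.0.0. Kept cells held 34646663, 24698719 and 38910431 UMIs at P38, 6 months and 12 months. Data of other ages and chromatin assays were not analysed here.

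Cells were kept with over 200 and under 5000 genes and under 15% mitochondrial UMIs. Each cell took the class with the highest marker score, from 88 marker genes of 19 classes. It needed 2 markers detected, a score of at least 1 and a margin of at least 0.25 over the next class. The hair germ, outer bulge, niche and upper bulge also needed a defining marker, and Lgr6 barred the hair germ and Lgr5 the upper bulge. Unassigned were 510 (24.2%), 1186 (33.9%) and 1025 (31.6%) kept cells at P38, 6 months and 12 months. Gate thresholds were set after cells and markers had been seen. No doublets were removed, since Scrublet in scanpy 1.11.5 called 7 of 8851 cells and so had not worked, and removal of the highest scores was an alternative. Counts were summed per class and library where a class had at least 20 cells. The 22 sums of 8 epithelial classes were fitted in edgeR 4.0.16 (R 4.3.3) with TMM scaling, filterByExpr, class and library as terms and 12 residual degrees of freedom, by the quasi-likelihood test with Benjamini-Hochberg adjustment over 11599 genes. The 3 libraries differ in age and nothing names further animals. The block takes out differences between whole libraries. The p-values therefore measure how much differences between classes vary over these libraries, pooled over the 8 epithelial classes. They do not measure the spread between animals of an age. DESeq2 1.42.0 and clusters from Seurat 5.3.0 were alternatives. CPM carry exact Poisson and shares Clopper-Pearson 95% intervals, which cover counting error only, computed with scipy 1.17.1 and pandas 2.3.3 (numpy 2.4.6) under Python 3.11.15, and matplotlib 3.10.9 drew the plots. The fit was tested on simulated data.

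The 9 genes are always named. From each other list up to 4 genes each way with the smallest adjusted p in outer bulge-like over IFE basal-like cells are named, and for each of the 9 the 3 genes with the highest correlation. The calcineurin subunits fall outside this rule and were chosen after their values were seen. The genes and lists were chosen with earlier results of these data known.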

Additional observations from a re-analysis of the deposited data

Results flagged for a closer look

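With 1 library per age, 5 differences between classes pointed in opposite directions in different libraries, each with a counting interval that left out 0. Of these, the 2 in the upper bulge did so only with the 28 of 95 cells at 12 months that held fibroblast markers. The difference between libraries was not tested, and age, sex, hair cycle stage, sorting and depth cannot be told apart. The log2 ratio of Sox9 in hair germ-like over outer bulge-like cells was 0.30 at P38 and -0.58 at 12 months. That of Tbx1 was 0.68 at P38 and -0.32 at 6 months. Nfatc1 in upper bulge-like over outer bulge-like cells had 0.76 at P38 and -0.43 at 12 months, and -0.21 (-0.64 to 0.21) at 12 months without those cells. Hopx in upper bulge-like over IFE basal-like cells had 0.90 at P38 and -0.28 at 12 months, and 0.15 (-0.09 to 0.39) at 12 months without them. Hopx in inner bulge niche-like over outer bulge-like cells had 0.28 at P38 and -0.38 at 6 months. None of these 5 differences was called in the fit over the 3 libraries.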

How the results depend on the processing

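Of 1197 alternative values of the fold changes of the 9 genes, 1115 kept direction and side of the threshold, 32 gained a call, 33 lost one and 17 changed sign, all of them without a call. The cause of these changes was not tested. With 3 libraries the count of called genes rested on each of them, and upper bulge values without P38 or 12 months rest on 1 library that is assumed to vary like the other classes. At 12 months 28 upper bulge-like cells held fibroblast markers, and at 6 months shallow cells left few for thinning. The library block already pairs classes of the same library, and the labels give no shared replicate numbers for any further pairing. The clusters gave no upper bulge class and so no value for it. Removal of shared barcodes, removal of cells with fibroblast markers and scaling to the total count were chosen after seeing the data.

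Over IFE basal-like cells 2752 genes were called in hair germ-like, 2512 in outer bulge-like, 1843 in inner bulge niche-like, 1114 in upper bulge-like and 2859 in upper follicle-like cells. Without the library block these were 1466, 1273, 1004, 440 and 1503, and with the pair of classes fitted alone 1456 in hair germ-like and 663 in upper bulge-like cells. Upper bulge-like cells had 682 without cells with fibroblast markers. Over outer bulge-like cells 114 genes were called in hair germ-like, 13 in niche-like, 110 in upper bulge-like and 3444 in upper follicle-like cells. Without the block these were 6, 7, 16 and 1974. Hair germ-like cells had 277 with no filter, 191 by DESeq2, 240 with the classes alone and 403 with clusters. Niche-like cells had 50, 39, 158 and 275 under the same alternatives. Upper bulge-like cells had 288 with no filter, 173 by DESeq2 and 62 without cells with fibroblast markers.

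Leaving out 1 library gave 1535 to 1993 genes in hair germ-like, 1358 to 1571 in outer bulge-like, 814 to 1195 in niche-like, 249 to 999 in upper bulge-like and 1793 to 1912 in upper follicle-like over IFE basal-like cells. Over outer bulge-like cells it gave 14 to 56, 2 to 12, 0 to 119 and 1970 to 2428 in hair germ-, niche-, upper bulge- and upper follicle-like cells. It left 5 to 8 of the 9 genes called in the upper follicle over IFE basal-like cells, and 0 to 1 in the hair germ and 0 to 2 in the upper bulge over the outer bulge.

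Of the 9 genes, against the outer bulge, 2 were called in the hair germ with no filter, with the classes alone and with clusters. Without the block 0 were called. Of all genes, 149 were higher and 128 lower of 20126 with no filter, and 119 and 121 of 8527 with the classes alone. With clusters these were 208 and 195 of 11205, and without the block 2 and 4 of 11599. In the niche 1 was called with the classes alone, beside 90 higher and 68 lower of all 7096 genes tested. In the upper bulge 1 was called with no filter, by DESeq2 and without the highest Scrublet scores. There, 204 of all 20126 genes were higher and 84 lower with no filter, and 102 and 71 of 11599 by DESeq2. Without the highest Scrublet scores 70 of 11568 genes were higher and 46 lower. In the upper follicle 7 were called with the classes alone, and Foxc1 was the one that was higher. Of all 9449 genes tested in that fit 1379 were called higher and 1326 lower.

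With a gate margin 2 times as wide, Hopx in upper bulge-like over IFE basal-like cells was -0.09 and Tbx1 in hair germ-like over outer bulge-like cells 0.04, and Tbx1 was 0.03 with the classes alone. Sox9 in the hair germ over the outer bulge was 0.00 without the block. With clusters, Runx1 and Hopx in the niche were -0.01 and 0.03 and Sox9 in the upper follicle was 0.14 over the outer bulge. Tcf7l1 in the upper bulge was -0.04 without cells with fibroblast markers, and Hopx in the upper follicle -0.16 on the total count, both over the outer bulge. Leaving out 1 library gave -0.52 to 0.64 for Hopx in the upper bulge over IFE basal-like cells. Over outer bulge-like cells it gave -0.28 to 0.08 for Sox9 and -0.31 to 0.08 for Tbx1 in the hair germ, -0.04 to 0.17 for Runx1 and -0.26 to 0.07 for Hopx in the niche, -0.28 to 0.38 for Nfatc1 in the upper bulge and -0.12 to 0.35 for Hopx in the upper follicle.

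Scaling to the total count moved the split of called genes. Of those over IFE basal-like cells 73.0% were higher in the hair germ (52.6% under TMM), 71.3% in the outer bulge (49.9%), 74.0% in the niche (52.0%) and 88.6% in the upper bulge (63.4%), and in the upper follicle over the outer bulge 32.5% (52.2%).

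The share of outer bulge-like cells with 3 or more of the 9 genes was 23.7%, 46.2% and 39.4% at P38, 6 months and 12 months at 1000 UMIs, 91.3%, 100% and 94.1% at 5000 UMIs and 95%, 89% and 96.2% with no thinning.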
